A study of Mus musculus with 33 samples.

Results

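Kidneys taken 9 weeks after injection of Adv-IFNα, an adenovirus vector that carries interferon-alpha, were compared with kidneys of untreated mice. The comparison was chosen by the time point labels alone and used 8 of the 33 arrays of the series, 5 labelled week 9 and 3 labelled untreated. It was described over 17097 genes, each represented by the probe set with the highest mean signal among the 45037 non-control probe sets. All mice were NZB X NZW F1 (BWF1) hybrids, and the kidneys came from separate mice with 1 array each. The sources describe female mice injected intravenously at 9 weeks of age, and at 8 weeks in another passage. The other 25 treated kidneys, 5 each from weeks 1, 2, 3, 5 and 7, entered the fit only for the estimate of the spread and for the side comparisons given at the end. The week 9 group had received the virus, and the untreated group had no treatment, so the effects of the vector and of interferon-alpha cannot be told apart, since no kidneys that received an empty virus are among these samples. The study describes its controls as matched for age, but the labels give neither age nor collection week for these untreated mice, and the part of ageing was not tested. Values are log2 signals after robust multi-array average (RMA) normalization, where a difference of 1 is a 2-fold change.

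The BWF1 cross develops lupus nephritis, in which immune complexes deposit in the glomeruli and leukocytes collect around the tubules. Type I interferon acts through a receptor on nearly all cells and induces antiviral genes, many of which carry the interferon-stimulated response element upstream of their start. The proximal tubule of the kidney reabsorbs most filtered solutes and depends on mitochondrial oxidation, and injured tubular cells are known to lose transport and metabolic transcripts while gaining injury markers. In whole kidney RNA, fewer cells of a type and less RNA per cell cannot be told apart.

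At week 9 the kidneys held more transcript of interferon-stimulated genes, macrophage genes, tubular injury genes and collagens, and less transcript of enzymes of amino acid catabolism, of corticosteroid-binding globulin (Serpina6) and of Dnase1. Calls required a change of over 2-fold at an adjusted p below 0.05, and 518 genes were called higher (3.03% of those tested) and 110 lower (0.643%). Of the genes called higher, 112 exceeded 4-fold and 17 exceeded 8-fold. Of those called lower, 9 exceeded 4-fold and 1, Serpina6, exceeded 8-fold. Without a fold threshold, 1547 genes rose (9.05%) and 1294 fell (7.57%), and the falls were smaller. Their balance moved with the fit, with 1840 and 1016 on centred arrays, 1115 and 774 with array weights and 653 and 328 with only the 8 arrays compared. Of the falls 91.5% were under 2-fold, against 66.5% of the rises, and the median change over all genes was -0.03. Every week 9 kidney lay above every untreated kidney for 1362 genes (7.97%) and below every untreated kidney for 1523 (8.91%). Of the called genes, 442 of those higher and 96 of those lower separated the groups in this way, and 90 overlapped. In untreated kidneys the genes called higher had a median signal of 4.77, near the 5.03 over all genes. The genes called lower were brighter, with a median of 7.93. In the paragraphs below "rose" and "fell" mean an adjusted p below 0.05 at any fold, and a list is described by how many measured members did so, beside the shares of 9.05% and 7.57% over all genes.

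**Figure D1:**
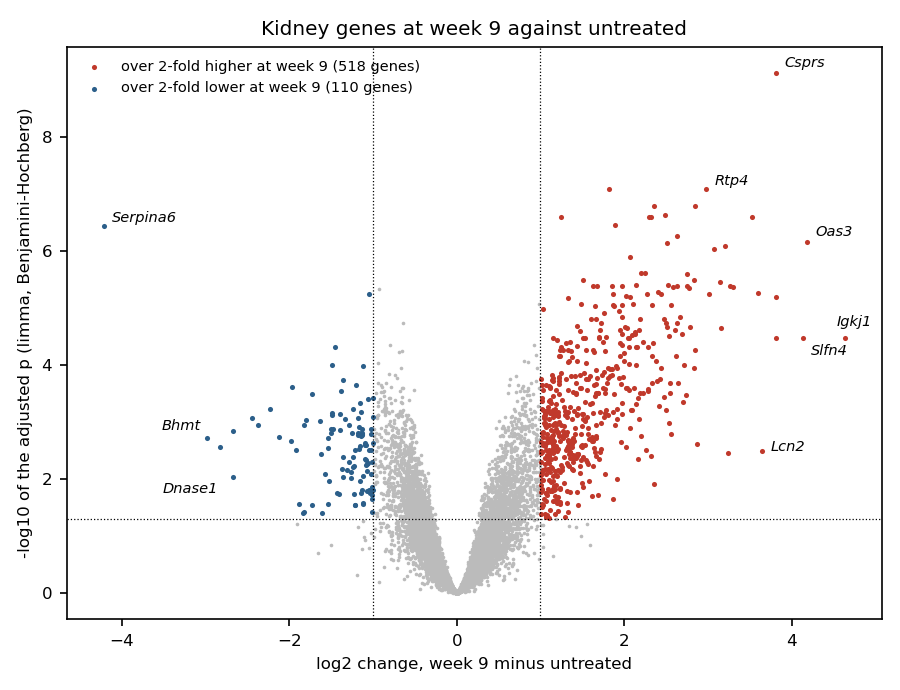
Change of each of the 17097 genes (horizontal axis, log2, week 9 minus untreated, 5 and 3 kidneys) against minus log10 of its adjusted p (vertical axis, limma with Benjamini-Hochberg adjustment). Each point is a gene, the 518 called higher lie to the right and the 110 called lower to the left, and grey points were not called.

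The week 9 kidneys were not alike. The median change of the genes called higher was 1.83, 0.84, 1.13, 1.75 and 1.82 in replicates 1 to 5, and that of the genes called lower was -1.81, -0.58, -0.84, -1.69 and -1.45. Replicates 2 and 3 thus lay closest to the untreated kidneys in both directions, while the median over all genes stayed between -0.08 and 0.06 in the 5 kidneys. The median SD of the genes called higher was 0.58 among the week 9 kidneys and 0.33 among the untreated kidneys, against 0.21 in both over all genes. With week 9 replicate 2 left out 620 genes were called higher and 159 lower, and with week 9 replicate 1 left out 442 and 69. Arrays correlated at 0.983 to 0.992 within week 9, at 0.984 to 0.986 within untreated and at 0.967 to 0.987 between the groups, across probe sets, which are not independent. Beta-actin probe sets at the 3′ and 5′ ends of the transcript, which check RNA integrity, gave a log2 ratio of 2.02 ± 0.10 (SD, n = 5) at week 9 and 1.57 ± 0.16 (SD, n = 3) in untreated kidneys, with no overlap (exact two-sided permutation test, p = 0.0357, the smallest that 5 against 3 allows). The ratio for Gapdh was 1.54 and 1.51 (exact two-sided permutation test, p = 0.607). With this beta-actin ratio as a covariate in the model 547 genes were called higher and 112 lower, of which 391 and 58 were also called without it, but the genes that rose or fell numbered 833 and 283. Genes described below as rising or falling whose adjusted p was 0.0508 or higher with this covariate, beside those where this is said, were Acaa1b, Acaca, Acadl, Apoe, Ccl5, Cd2, Cd2ap, Cd3g, Cd74, Col4a3, G6pc, Gapdh, Gldc, H2-Oa, Haao, Ido2, Il1b, Irf8, Klrd1, Mmp12, Nkg7, Per2, Per3, Prdx3, Pvalb, Rps4x, S100a8, Slc13a1, Slc16a14, Slc4a1, Sting1, Tfrc, Tnfrsf13b, Trpv6 and Zap70. Changes that it made over 1.5 times larger in fold, beside those given below, were those of Bhmt, Cd44, Cebpd, Clec2h, Col6a3, Dnase1, Egr2, Fpr2, Havcr1, Hdc, Lcn2, Prc1, S100a4, Slc22a27, Timp1 and Ugt2b37. The kidney markers Umod (11.09 to 11.33 at week 9 and 10.77 to 10.97 in untreated kidneys) and Slc12a1 (10.34 to 10.95 and 10.44 to 10.75), both of the thick ascending limb, were bright in all 8 kidneys.

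**Figure D2:**
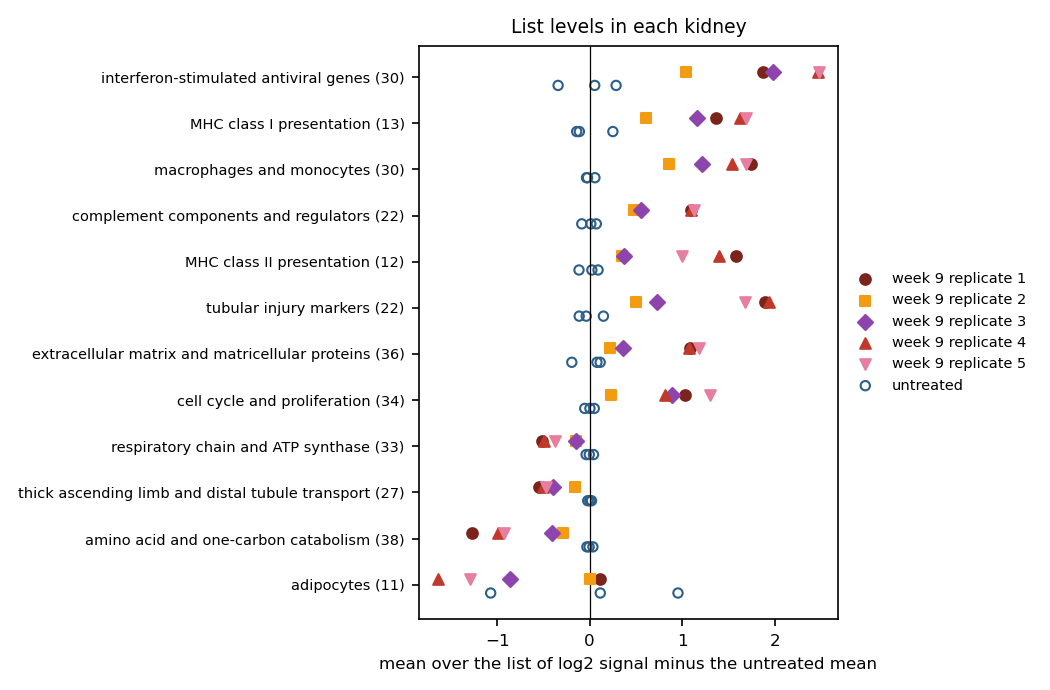
Mean over the members of 12 gene lists of the log2 signal minus the untreated mean (horizontal axis) for each of the 5 week 9 and 3 untreated kidneys (points), with the number of measured members beside each list name. Week 9 replicates 2 and 3 lie nearest to the untreated kidneys in the tubular injury, extracellular matrix and amino acid lists, and the adipocyte list spreads widely in both groups.

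Interferon-stimulated genes formed the group with the highest share of rising members. Of 30 measured antiviral genes 28 rose, 26 of them by over 2-fold, with a median change of 1.87. The list's mean difference from its untreated mean was 1.87, 1.04, 1.98, 2.46 and 2.48 in week 9 replicates 1 to 5, and 0.29, 0.06 and -0.34 in the untreated kidneys. All week 9 kidneys thus lay above all untreated kidneys, and replicate 2 was the lowest of them. The members that did not pass were Mx2, an antiviral GTPase, and Ddx60, a helicase that aids RNA sensing (change 0.57, adjusted p = 0.341). The rise was in 27 or 28 members with any array left out and in 24 with the beta-actin covariate.

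Oas3 makes the 2′-5′ oligoadenylates that activate RNase L. It had signals of 6.56, 5.63, 7.36, 7.93 and 7.94 in the week 9 kidneys, against 2.50, 3.69 and 2.49 in untreated kidneys. The lowest week 9 kidney lay well above the highest untreated kidney, and the change was 4.19 (SE 0.47, adjusted p = 6.92e-07). Ifit1, which binds viral RNA that lacks the host cap methylation, had 8.26, 7.42, 9.02, 9.42 and 9.43 at week 9, against 6.87, 5.31 and 4.15 in untreated kidneys. The groups did not overlap, but the untreated kidneys spanned a wide range, and the change of 3.26 (SE 0.41, adjusted p = 4.03e-06) was 3.98 and 2.62 when untreated replicates 1 and 3 were left out in turn. Oasl2, a relative of Oas3, rose by 3.29 (SE 0.42, adjusted p = 4.23e-06) and Rtp4, a chaperone of cell surface receptors, by 2.98 (SE 0.28, adjusted p = 8.21e-08, and by 1.93 with its probe sets averaged). Irf7, the transcription factor that amplifies interferon production, and Mx1, a GTPase that traps viral nucleocapsids, were chosen after their values were seen. Irf7 had 6.09, 4.84, 6.69, 7.40 and 7.26 at week 9, against 3.95, 4.13 and 3.98 in untreated kidneys (change 2.44, adjusted p = 1.10e-04). Mx1 had 7.51, 6.16, 7.85, 8.07 and 7.81 at week 9, against 6.16, 4.78 and 3.37 in untreated kidneys (change 2.71, adjusted p = 9.84e-05, and 3.41 and 2.01 without untreated replicate 1 and 3). For Mx1 week 9 replicate 2 stood at the level of untreated replicate 1, which was also the highest untreated kidney for Ifit1.

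Genes that interferon-gamma induces most strongly rose as well, in 13 of 20 measured members, each by over 2-fold, with a median of 1.55 (8 members with the beta-actin covariate). Gbp10 and Iigp1 are GTPases of the guanylate-binding and immunity-related families, which attack the vacuoles of intracellular pathogens. Gbp10 rose by 2.69 (SE 0.40, adjusted p = 2.81e-05), Tgtp1 by 2.47 (SE 0.45, adjusted p = 3.65e-04), Irgm1 by 2.27 (SE 0.29, adjusted p = 5.64e-06) and Iigp1 by 2.10 (SE 0.40, adjusted p = 6.16e-04). Probe sets of Gbp10 and Tgtp1 can bind transcripts of near-identical relatives. Csprs, a gene of a multicopy cluster whose probe set can likewise bind relatives, separated the groups with a small spread, at 8.01, 7.31, 8.19, 8.21 and 8.31 at week 9 against 4.69, 4.46 and 3.44 in untreated kidneys (change 3.81, SE 0.29, adjusted p = 7.41e-10). That size rested on the brightest probe set, since the other 2 rose by 0.69 and 0.67 and the average of all was 1.72.

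The core of the interferon-stimulated response element, GAAANNGAA on either strand, was looked for in the 250 bases before the start of each gene (RefSeq, build GRCm38.p6), which were at hand for 13605 of the 17097 genes. It was in 6.24% of them, in 55 of 390 genes called higher (14.1%) and in 5 of 85 called lower (5.88%). In the list of antiviral genes 7 of 20 held it (35%) and in the list induced by interferon-gamma 12 of 14 (85.7%). The core of the gamma-activated site, TTCNNNGAA, which can overlap it, was in 6.43% of all promoters, in 8.97% of those of genes called higher and in 3.53% of those called lower. A match is a run of letters and not a measured site. The windows below are those of 2 antiviral genes, 2 immunity-related GTPases and 2 genes of macrophages among the rises described here. Each is of 80 bases, with the matches in capitals. All were picked from genes that hold a match, and the share of macrophage or Fc receptor genes that hold it was not counted.
Oas3 (chr5:120777688-120777767, minus strand): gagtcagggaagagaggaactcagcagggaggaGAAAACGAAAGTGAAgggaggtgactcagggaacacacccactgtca
Ifit1 (chr19:34640757-34640836, plus strand): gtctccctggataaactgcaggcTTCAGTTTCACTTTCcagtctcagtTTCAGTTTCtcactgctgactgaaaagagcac
Irgm1 (chr11:48871421-48871500, minus strand): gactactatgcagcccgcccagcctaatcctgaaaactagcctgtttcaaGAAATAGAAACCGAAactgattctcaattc
Tgtp1 (chr11:48992280-48992359, minus strand): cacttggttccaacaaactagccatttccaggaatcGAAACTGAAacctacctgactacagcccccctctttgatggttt
Ms4a7 (chr19:11334800-11334879, minus strand): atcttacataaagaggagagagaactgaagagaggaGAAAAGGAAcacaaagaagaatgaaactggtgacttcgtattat
Fcgr4 (chr1:171018817-171018896, plus strand): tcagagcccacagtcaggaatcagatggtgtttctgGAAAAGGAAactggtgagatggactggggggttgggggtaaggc
In Ifit1 the matches read on the other strand, and in Oas3, Ifit1 and Irgm1 neighbouring matches overlap into 1 longer run. The matches of Oas3 lay 75 to 61 bases before the start and those of Irgm1 30 to 16 bases before it.

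MHC class I presentation, which shows peptides of the cell interior to CD8+ T cells, rose in 11 of 13 measured members with a median of 1.16. H2-Q4 rose by 2.15 (SE 0.33, adjusted p = 4.72e-05), H2-K1 by 2.11 (SE 0.28, adjusted p = 8.30e-06), Nlrc5, the transactivator of these genes, by 2.06 (SE 0.33, adjusted p = 9.41e-05) and the immunoproteasome subunit Psmb8 by 1.57 (SE 0.38, adjusted p = 0.00532). Probe sets of H2 genes can bind relatives of the family. With the beta-actin covariate 7 members rose, and with probe sets averaged H2-K1 and Psmb8 changed by 1.36 and 0.79. MHC class II presentation, which shows extracellular peptides to CD4+ T cells, rose in 7 of 12 members with the same median of 1.16, and H2-Oa, which dampens peptide loading, fell by 0.57 (adjusted p = 0.00564, and 0.160 without untreated replicate 3). Cd74, the invariant chain, had 10.84, 9.28, 9.26, 10.54 and 10.32 at week 9, against 8.56, 8.61 and 9.09 in untreated kidneys. All week 9 kidneys were higher, replicates 2 and 3 only just, and the change was 1.30 (SE 0.44, adjusted p = 0.0455, and 0.0687 to 0.139 on leaving out any array but week 9 replicates 2 and 3). Both Cd74 and H2-Oa were chosen after their values were seen. The class II count was 1 when untreated replicate 3, week 9 replicate 1 or week 9 replicate 4 was left out, 2 when untreated replicate 1 was, 4 when untreated replicate 2 or week 9 replicate 5 was, and 1 with the beta-actin covariate or with only the 8 arrays. Ctss, the cathepsin that trims the invariant chain, rose by 2.18 (SE 0.32, adjusted p = 2.39e-05).

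Sensors of nucleic acid rose in 11 of 18 measured members with a median of 0.65. Ifi204, a sensor of DNA, rose by 2.53 (SE 0.37, adjusted p = 3.11e-05) and Dhx58, a regulator of the RNA sensors, by 2.01 (SE 0.29, adjusted p = 2.16e-05). Ifih1, the sensor of long RNA also called MDA5, rose by 1.70 (SE 0.25, adjusted p = 3.35e-05) and Tlr7, the endosomal receptor of single-stranded RNA, by 1.66 (SE 0.30, adjusted p = 3.08e-04). With probe sets averaged Dhx58 changed by 0.73 and Tlr7 by 0.86. Ifih1 had 7.44, 6.92, 7.77, 8.17 and 8.13 at week 9, against 6.48, 6.04 and 5.43 in untreated kidneys, so every week 9 kidney was higher. Sting1, the adaptor of cyclic GMP-AMP, had 5.32, 4.07, 4.43, 5.05 and 4.46 at week 9, against 3.81, 4.29 and 3.87 in untreated kidneys. Replicate 2 of week 9 lay below untreated replicate 2, and the change of 0.68 (SE 0.23, adjusted p = 0.0402) missed the threshold on leaving out untreated replicate 1 (adjusted p = 0.153) or 3 (0.140) or without week 9 replicate 1 (0.133) or 4 (0.106).

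Macrophage and monocyte genes rose in 19 of 30 measured members, and none fell, with a median of 1.37. The list had 17 to 20 rising members with any array left out and 17 with the beta-actin covariate. Ms4a7, a membrane protein of mature macrophages, had 8.36, 5.94, 7.07, 7.83 and 8.33 at week 9, against 3.93, 3.31 and 4.47 in untreated kidneys. The groups were far apart, and the change was 3.60 (SE 0.47, adjusted p = 5.40e-06). Other members of its family rose too, Ms4a6c by 3.20 (SE 0.36, adjusted p = 8.14e-07), Ms4a4c by 3.15 (SE 0.39, adjusted p = 3.47e-06), Ms4a6b by 3.07 (SE 0.35, adjusted p = 9.11e-07) and Ms4a6d by 2.83 (SE 0.35, adjusted p = 3.17e-06). Probe sets of these close relatives can bind one another's transcripts, and with probe sets averaged the changes of Ms4a7, Ms4a6c and Ms4a6b were 2.03, 1.79 and 2.35. Adgre1, which encodes the macrophage antigen F4/80, and Cd68, an endosomal glycoprotein of phagocytes, were chosen after their values were seen. Adgre1 had 5.82, 4.36, 4.15, 4.84 and 4.95 at week 9, against 2.29, 2.37 and 2.07 in untreated kidneys (change 2.58, SE 0.33, adjusted p = 4.23e-06). Cd68 had 5.33, 4.10, 4.63, 4.75 and 4.86 at week 9, against 3.58, 2.24 and 3.05 in untreated kidneys (change 1.77, SE 0.32, adjusted p = 3.08e-04). Neither gene overlapped between the groups. Itgam, the integrin chain CD11b, stood between 1.79 and 2.19 at week 9 and between 1.62 and 2.12 in untreated kidneys, near the bottom of the signal range, and did not pass.

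Genes by which phagocytes take up immune complexes and complement-coated targets rose together with these markers. Of 22 complement genes 11 rose and none fell, with a median of 0.78. C4b, the mouse C4 component, rose by 2.78 (SE 0.35, adjusted p = 4.35e-06). C1qa, a chain of the recognition unit of the classical pathway, had 8.26, 6.36, 6.82, 8.05 and 7.88 at week 9, against 5.52, 5.12 and 5.49 in untreated kidneys. The week 9 kidneys were all higher, with replicate 2 the nearest, and the change was 2.10 (SE 0.31, adjusted p = 2.98e-05), beside 2.06 for C1qc and 2.05 for C3ar1, the receptor of the C3a fragment. Of 13 genes of Fc receptors and their signalling 5 rose (8 without week 9 replicate 2), namely Fcgr4 by 2.75 (SE 0.35, adjusted p = 4.03e-06), Fcgr1 by 2.28 (SE 0.40, adjusted p = 2.63e-04, and by 1.34 with its probe sets averaged), Fcgr3 by 1.99 (SE 0.33, adjusted p = 1.58e-04), Fcer1g by 1.95 (SE 0.31, adjusted p = 6.97e-05) and the adaptor Tyrobp by 1.5 (SE 0.30, adjusted p = 0.00117). Tyrobp was named after its value was seen. Of 25 genes of the phagocyte oxidase, lysosome and lipid handling 14 rose, with Cybb, the catalytic subunit of the oxidase, at 1.81 (SE 0.30, adjusted p = 1.70e-04), Ncf4 at 1.16 and the galectin Lgals3 at 1.34. That count was 9 without any 1 of the untreated kidneys or week 9 replicate 1 or 4, 9 with the beta-actin covariate and 5 with only the 8 arrays.

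Antibody transcripts gave the largest change of all named genes, while most measured genes of B cells were not past the test. Igkj1, a joining segment of the kappa light chain whose probe set can bind many antibody transcripts, had 9.95, 8.27, 7.78, 8.54 and 8.30 at week 9, against 4.20, 2.88 and 4.72 in untreated kidneys (change 4.63, SE 0.69, adjusted p = 3.34e-05). Jchain, the chain that joins secreted IgA and IgM, had 9.15, 7.96, 7.00, 7.53 and 7.37 at week 9, against 4.07, 4.28 and 3.62 in untreated kidneys (change 3.81, SE 0.57, adjusted p = 3.33e-05). For both genes the groups were far apart and week 9 replicate 1 was the highest kidney. With the beta-actin covariate the changes were 4.0 (adjusted p = 0.0167) and 2.78 (adjusted p = 0.0347). Pou2af1, a coactivator of antibody genes, rose by 2.14 (SE 0.33, adjusted p = 4.87e-05) and Irf4, needed for plasma cells, by 1.77 (SE 0.34, adjusted p = 6.76e-04, and by 0.79 with its probe sets averaged). Tnfrsf13b, the receptor TACI, rose by 0.76 (adjusted p = 0.0219) but missed the threshold on leaving out untreated replicate 2 (adjusted p = 0.0776) or 3 (0.0740) or without week 9 replicate 1 (0.0584) or 4 (0.0619). These made 4 of the 17 measured B cell and plasma cell genes. Ms4a1, the B cell marker CD20, stood between 1.65 and 2.64 at week 9 and between 1.72 and 1.84 in untreated kidneys on the probe set used (adjusted p = 0.291), while its other, dimmer probe set rose by 0.83 (adjusted p = 0.00267). Cd79a, of the B cell receptor, stood between 3.85 and 4.32 and between 4.14 and 4.28. Ighm, the mu heavy chain, stood between 3.05 and 3.66 at week 9 and between 2.73 and 3.30 in untreated kidneys. None of these genes passed on its brightest probe set.

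T and NK cell genes moved less than macrophage genes. Of 21 measured members 6 rose and 1 fell, with a median of 0.49. Ccl5, a chemokine of cytotoxic lymphocytes, rose by 1.70 (SE 0.40, adjusted p = 0.00439), Cd3g, of the T cell receptor complex, by 1.32 (SE 0.32, adjusted p = 0.00525) and Nkg7, a granule protein, by 1.08 (SE 0.27, adjusted p = 0.00677). Nkg7, Cd2 and Klrd1 missed the threshold on leaving out untreated replicate 3 (adjusted p = 0.0685, 0.146 and 0.0813), as did Cd3d. The list then had 3 rising members, at least 1 of which had not passed in the main fit. With only the 8 arrays 3 rose, and with the beta-actin covariate 2 rose. Cd3d rose by 0.68 (adjusted p = 0.0310), but missed the threshold on leaving out untreated replicate 2 (adjusted p = 0.178) or 3 (0.0571) or week 9 replicate 1 (0.102) or 5 (0.0565). Cd3e was just short of the threshold at 0.80 (adjusted p = 0.0535), and Cd8a (0.56, adjusted p = 0.110) and Cd4 (-0.16, adjusted p = 0.450) did not pass. Zap70, a kinase of the T cell receptor, fell by 0.39 (adjusted p = 0.0439), and lost this when any array other than week 9 replicates 4 and 5 was left out (adjusted p = 0.0576 to 0.131). Klrd1, Cd3d and Zap70 were named after their values were seen.

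Of the neutrophil list 4 of 16 measured members rose, and these are genes that other cells are also known to express, while the granule genes were dim. Slfn4, of the Schlafen family and known from activated macrophages, has a probe set that can bind relatives and had 6.15, 5.59, 8.39, 9.07 and 8.57 at week 9, against 4.51, 3.16 and 2.60 in untreated kidneys (change 4.13, SE 0.61, adjusted p = 3.34e-05). Fpr2, a formyl peptide receptor of phagocytes, rose by 3.81 (SE 0.50, adjusted p = 6.43e-06, and by 4.53 without untreated replicate 1), and Il1b, the inflammasome cytokine, by 1.49 (SE 0.33, adjusted p = 0.00261). Fpr2 had 7.15, 6.43, 7.63, 5.78 and 7.11 at week 9, against 4.45, 1.96 and 2.62 in untreated kidneys, and the groups did not overlap. The granule genes Mpo, Elane, Ngp, Camp and Ltf did not pass, nor did S100a9 (2.86 to 4.35 at week 9 and 2.90 to 4.04 in untreated kidneys). S100a8 stood between 2.37 and 2.70 at week 9 and between 2.76 and 3.40 in untreated kidneys, a fall of 0.56 (adjusted p = 0.0429) that missed the threshold on leaving out untreated replicate 1 (adjusted p = 0.124) or 3 (0.236) or week 9 replicate 1 (0.0953) or 4 (0.0928). Lcn2, the other rising member, is described with the tubular injury markers. The summed linear signal of the 16 genes ran from 8.51 to 10.74 on the log2 scale at week 9 and from 7.10 to 7.66 in untreated kidneys. Bright members weigh most in such a sum, and the median change of the list was 0.11. Of 11 dendritic cell genes 5 rose, led by Cd83 at 1.96 (SE 0.34, adjusted p = 2.10e-04) and Irf8, a transcription factor of dendritic cells and macrophages, at 1.19 (SE 0.23, adjusted p = 7.35e-04), with a list median of 0.08 and 1 rising member with the beta-actin covariate.

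Genes that recruit and hold leukocytes rose in both chemokine and adhesion lists. Of 30 chemokines and receptors 17 rose and none fell, with a median of 0.85 (11 without untreated replicate 3, with the beta-actin covariate or with only the 8 arrays). Cxcl1, which draws neutrophils, had 7.41, 5.29, 6.41, 8.11 and 8.10 at week 9, against 4.41, 3.71 and 3.61 in untreated kidneys (change 3.16, SE 0.45, adjusted p = 2.18e-05). The lowest treated kidney was replicate 2, still above the untreated ones. Ccl28, a mucosal chemokine, rose by 2.70 (SE 0.50, adjusted p = 4.46e-04), Ccl9 by 2.52 (SE 0.32, adjusted p = 3.93e-06) and Cxcl13, which draws B cells, by 2.44 (SE 0.32, adjusted p = 5.64e-06). Of 17 adhesion genes 9 rose, also with any array left out. Cd44, the hyaluronan receptor, had 8.82, 7.11, 7.28, 8.16 and 8.6 at week 9, against 5.25, 4.88 and 4.81 in untreated kidneys (change 3.01, SE 0.39, adjusted p = 5.64e-06). The leukocyte actin regulator Coro1a rose by 2.05 (SE 0.31, adjusted p = 4.88e-05), the integrin chain Itgb2 by 1.98 (SE 0.29, adjusted p = 2.81e-05) and Vcam1, a ligand of leukocyte integrins, by 1.97 (SE 0.30, adjusted p = 4.50e-05). Of 25 cytokine and TNF family genes 9 rose, with Il1rn, the antagonist of interleukin-1, at 2.67 (SE 0.37, adjusted p = 1.44e-05), the alarmin Il33 at 2.12 (SE 0.37, adjusted p = 2.51e-04) and the TNF receptor Tnfrsf1b at 1.41 (SE 0.29, adjusted p = 0.00126). The other probe set of Tnfrsf1b changed by -0.21 (adjusted p = 0.387), and the average was 0.60. With probe sets averaged the changes were also smaller for Ccl28 (1.77), Ccl9 (1.59), Cxcl13 (1.82), Cd44 (1.75), Coro1a (1.31) and Il1rn (1.24).

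**Figure D3:**
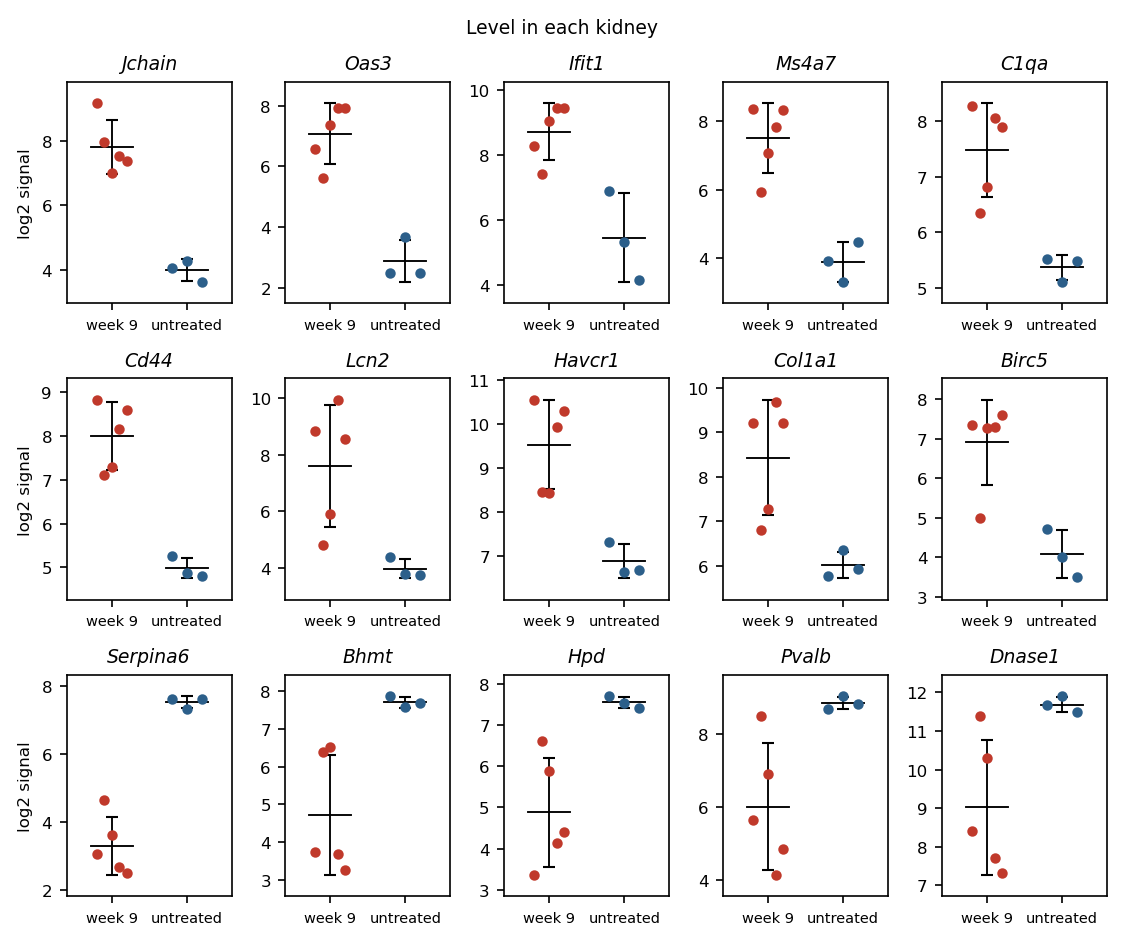
Log2 signal (vertical axis) of 15 genes in each of the 5 week 9 kidneys and the 3 untreated kidneys (points, with the mean as a bar and the SD as a line). Week 9 values lie above every untreated value for the 10 rising genes and below every untreated value for Serpina6, Bhmt, Hpd, Pvalb and Dnase1, and Lcn2 spreads from 4.82 to 9.94 at week 9.

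Markers of tubular injury rose in 17 of 22 measured members with a median of 1.37 (10 rose with only the 8 arrays). Havcr1, the injury molecule KIM-1 of the proximal tubule, had 10.53, 8.46, 8.43, 9.94 and 10.29 at week 9, against 7.33, 6.64 and 6.69 in untreated kidneys. Week 9 replicates 2 and 3 lay well below the other treated kidneys and still above the untreated ones, and the change was 2.65 (SE 0.45, adjusted p = 2.08e-04). Lcn2, the siderophore-binding lipocalin NGAL, was again lowest in week 9 replicates 2 and 3 and had a wider range, at 8.84, 4.82, 5.90, 9.94 and 8.55 at week 9 against 4.37, 3.78 and 3.75 in untreated kidneys. Its change of 3.64 (SE 0.83, adjusted p = 0.00322) was 4.34 without week 9 replicate 2. Vim, the intermediate filament vimentin of mesenchymal and dedifferentiated tubular cells, rose by 1.80 (SE 0.29, adjusted p = 1.12e-04). Of 23 acute phase genes 7 rose with a median of 0.55, among them Lcn2, ceruloplasmin (Cp) by 2.38 (SE 0.38, adjusted p = 8.54e-05, and by 1.17 with its probe sets averaged) and the fibrinogen chains Fgg by 2.13 (SE 0.40, adjusted p = 4.87e-04) and Fga by 1.66 (SE 0.36, adjusted p = 0.00192). With the beta-actin covariate the changes of Fgg and Fga were 3.33 and 2.79. The serum amyloids did not pass, with Saa1 between 2.20 and 4.70 at week 9 and between 2.27 and 2.59 in untreated kidneys, and Saa3 between 3.30 and 3.74 and between 2.78 and 3.44.

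Extracellular matrix genes rose in 18 of 36 measured members with a median of 0.63 (8 with only the 8 arrays, and 15 to 20 with 1 array left out). Col1a1, of type I collagen, had 9.20, 6.79, 7.28, 9.67 and 9.20 at week 9, against 5.77, 6.35 and 5.91 in untreated kidneys (change 2.42, SE 0.45, adjusted p = 5.26e-04). The groups did not overlap, but week 9 replicate 2 lay close to untreated replicate 2. Col3a1 rose by 2.17 (SE 0.39, adjusted p = 3.78e-04), the collagen cross-linking enzyme Lox by 1.89 (SE 0.38, adjusted p = 0.00114) and Col6a3 by 1.71 (SE 0.33, adjusted p = 6.50e-04). Fn1, fibronectin, chosen after its values were seen, rose by 1.64 (SE 0.37, adjusted p = 0.00285), and Tnc, the matricellular tenascin-C, by 1.61 (SE 0.35, adjusted p = 0.00212, or 0.109 given the beta-actin covariate). Col4a3, a chain of the glomerular basement membrane named after its value was seen, was the member that fell, by 0.53 (adjusted p = 0.0266), and missed the threshold on leaving out untreated replicate 2 (adjusted p = 0.0652) or 3 (0.102) or week 9 replicate 1 (0.0743) or 4 (0.0853). With probe sets averaged Col3a1 changed by 2.83, Lox by 1.19 and Tnc by 0.83, and Col4a3 did not pass (adjusted p = 0.0731). Col1a2 was represented by a dim probe set, between 1.45 and 1.95 at week 9 and between 1.25 and 1.73 in untreated kidneys, which did not pass.

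Myofibroblast and TGF-beta genes rose in 10 of 20 members with a median of 0.56 (6 without untreated replicate 1 or with only the 8 arrays). Tgfbi, a matrix protein that TGF-beta induces, rose by 2.19 (SE 0.31, adjusted p = 1.55e-05), S100a4 by 1.42 (SE 0.30, adjusted p = 0.00164) and Ccn1, an integrin ligand of the matrix, by 1.28 (SE 0.30, adjusted p = 0.00410). Acta2, the smooth muscle actin that defines myofibroblasts, had 8.70, 7.66, 8.50, 8.17 and 9.11 at week 9, against 7.37, 8.05 and 8.32 in untreated kidneys. The groups overlapped and the difference of 0.51 did not pass (adjusted p = 0.159). Of 18 metalloproteinases, inhibitors and plasminogen genes 6 rose with a median of 0.44 (3 without untreated replicate 3, 2 with the beta-actin covariate and 0 with only the 8 arrays). Timp1, an inhibitor of metalloproteinases, had 5.98, 3.40, 4.11, 5.16 and 6.0 at week 9, against 3.57, 2.82 and 3.10 in untreated kidneys. Week 9 replicate 2 lay below untreated replicate 1, and the change was 1.77 (SE 0.45, adjusted p = 0.00802). Adamts1 rose by 1.25 (SE 0.30, adjusted p = 0.00565). Mmp12, the macrophage elastase, was raised chiefly in week 9 replicate 1, at 5.14 against 1.80 to 2.90 in the other week 9 kidneys and 1.64 to 1.75 in untreated kidneys, and without that kidney its change was 0.69 (adjusted p = 0.0578). Nor did it pass without any 1 of the untreated kidneys (adjusted p = 0.0656 to 0.0761).

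Cell cycle genes rose in 13 of 34 measured members with a median of 0.59, and none fell. Birc5, the mitotic survivin, had 7.35, 5.00, 7.27, 7.30 and 7.61 at week 9, against 4.71, 4.01 and 3.50 in untreated kidneys (change 2.83, SE 0.46, adjusted p = 1.12e-04). Here week 9 replicate 3 stood with replicates 1, 4 and 5, and replicate 2 alone stood near the untreated kidneys. Nusap1, of the mitotic spindle, rose by 2.33 (SE 0.37, adjusted p = 6.98e-05), Prc1, of the midzone, by 2.28 (SE 0.40, adjusted p = 2.80e-04) and topoisomerase Top2a by 1.97 (SE 0.38, adjusted p = 7.07e-04). Top2a rested on 1 probe set, as the other 2, which were dimmer, changed by -0.30 and -0.03 and the average was 0.55, and the average for Nusap1 was 1.08. Mki67, chosen after its values were seen, had 6.35, 5.17, 6.20, 6.05 and 6.58 at week 9, against 4.41, 4.24 and 4.19 in untreated kidneys (change 1.79, SE 0.34, adjusted p = 6.00e-04). Of 21 cell death genes and p53 targets 9 rose with a median of 0.48 (4 with only the 8 arrays). Casp4, which cleaves gasdermin D when lipopolysaccharide reaches the cytosol, rose by 2.75 (SE 0.33, adjusted p = 2.51e-06), the inflammasome protease Casp1 by 1.33 (SE 0.29, adjusted p = 0.00212) and Mlkl, the effector of necroptosis, by 1.31 (SE 0.25, adjusted p = 7.52e-04). The cell cycle inhibitor Cdkn1a rose by 1.39 (SE 0.35, adjusted p = 0.00694). Of 23 immediate early genes 5 rose with a median of 0.58, led by Egr2 at 2.43 (SE 0.41, adjusted p = 1.78e-04) and Ier3 at 1.37 (SE 0.21, adjusted p = 5.71e-05).

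Enzymes of amino acid and methyl group catabolism, which the proximal tubule expresses, fell in 26 of 38 measured members, and none rose, with a median change of -0.65. The list's mean difference from its untreated mean was -1.27, -0.29, -0.41, -1.0 and -0.92 in week 9 replicates 1 to 5, and between -0.03 and 0.04 in the untreated kidneys. Every week 9 kidney was thus lower, replicates 2 and 3 by the least. Bhmt, which remethylates homocysteine with betaine, had 3.75, 6.38, 6.53, 3.69 and 3.27 at week 9, against 7.85, 7.57 and 7.67 in untreated kidneys (change -2.98, SE 0.64, adjusted p = 0.00190). Hpd, of tyrosine breakdown, had 3.36, 6.61, 5.88, 4.13 and 4.41 at week 9, against 7.69, 7.54 and 7.41 in untreated kidneys (change -2.67, SE 0.55, adjusted p = 0.00144). Neither gene overlapped, and replicates 1, 4 and 5 were lower than replicates 2 and 3 for both. Kynu and Haao, of the kynurenine pathway, fell by 1.5 (SE 0.31, adjusted p = 0.00133) and 1.24 (SE 0.30, adjusted p = 0.00619). Outside the list, Ido2, which oxidises tryptophan towards kynurenine, fell by 1.92 (SE 0.44, adjusted p = 0.00313), Gldc, of the glycine cleavage system, by 1.83 (SE 0.37, adjusted p = 0.00111) and Hdc, which makes histamine from histidine, by 2.44 (SE 0.48, adjusted p = 8.44e-04, and by 1.81 with its probe sets averaged). The list had 19 to 30 falling members with 1 array left out, 12 with the beta-actin covariate and 10 when the fit held only the 8 arrays.

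The respiratory chain and ATP synthase fell in 15 of 33 measured members with none rising, but by small amounts, with a median of -0.30 and no member past 2-fold. Sdhb, a subunit of succinate dehydrogenase, had 8.29, 9.08, 9.22, 8.53 and 8.81 at week 9, against 9.50, 9.59 and 9.64 in untreated kidneys (change -0.79, SE 0.19, adjusted p = 0.00473). The complex I subunits Ndufb5 and Ndufv1 fell by 0.65 (adjusted p = 0.00175) and 0.59 (adjusted p = 0.00292). The other probe set of Ndufb5 changed by -0.11 and did not pass (adjusted p = 0.653). The count was 10 to 16 with 1 array left out, 2 with only the 8 arrays and 4 with the beta-actin covariate, where Sdhb (adjusted p = 0.106) and Ndufv1 (adjusted p = 0.142) did not pass. Of 31 genes of fatty acid oxidation and peroxisomes 9 fell, with a median of -0.25 (5 when untreated replicate 1 or 3 or week 9 replicate 1 was left out, 3 with only the 8 arrays and 2 with the beta-actin covariate). The peroxisomal thiolases Acaa1b and Acaa1a fell by 1.14 (SE 0.24, adjusted p = 0.00177) and 0.87 (SE 0.16, adjusted p = 3.53e-04), and Acox2, an oxidase of bile acid precursors, by 0.98 (SE 0.24, adjusted p = 0.00566). The fall of Acaa1a rested on its brightest probe set, as the others changed by -0.26, -0.03 and -0.33 and did not pass (adjusted p = 0.231 to 0.94). Cyp4a12a, a fatty acid hydroxylase, and Acadl, an acyl-CoA dehydrogenase, were the members that rose, by 2.32 (SE 0.54, adjusted p = 0.00400) and 0.36 (adjusted p = 0.0297). Acadl, named after its value was seen, missed the threshold on leaving out untreated replicate 3 (adjusted p = 0.287) or week 9 replicate 3 (0.0661), 4 (0.0639) or 5 (0.0512), and with its probe sets averaged (0.469).

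Of 23 genes of glucose metabolism 4 fell (2 without week 9 replicate 1, with the beta-actin covariate or with only the 8 arrays). Khk, which phosphorylates fructose, fell by 1.18 (SE 0.25, adjusted p = 0.00155), and G6pc, which releases glucose in gluconeogenesis, by 1.23 (SE 0.35, adjusted p = 0.0182, and 0.0913 without untreated replicate 3 and 0.0614 without week 9 replicate 1). Of 18 genes of cholesterol and lipid synthesis 6 fell and 4 rose. Idi1, of the isoprenoid pathway, fell by 1.39 (SE 0.27, adjusted p = 7.04e-04) and Acaca, the carboxylase that opens fatty acid synthesis, by 1.16 (SE 0.26, adjusted p = 0.00261), whereas Apoe, the apolipoprotein that macrophages also make, rose by 1.02 (SE 0.27, adjusted p = 0.0103, and 0.0648 without untreated replicate 3). The rising count was 0 without untreated replicate 3 and 1 or 2 without any other array except week 9 replicates 2 and 3. With only the 8 arrays none rose, and with the beta-actin covariate 1 rose and 3 fell. Among 33 cytochromes P450 and conjugating enzymes 6 fell and 4 rose (3 fell without untreated replicate 1 or 3, 3 fell and 2 rose with only the 8 arrays, and 2 fell and 2 rose with the beta-actin covariate). Gsta2, a glutathione transferase, fell by 1.31 (SE 0.33, adjusted p = 0.00700), and Cyp1b1 rose by 1.43 (SE 0.25, adjusted p = 3.08e-04). Ugt2b37, which attaches glucuronic acid, had 6.45, 2.95, 4.16, 8.19 and 7.57 at week 9, against 3.51, 2.60 and 1.78 in untreated kidneys. Week 9 replicate 2 lay below untreated replicate 1, and the change of 3.23 (SE 0.74, adjusted p = 0.00345) was 3.96 without it.

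The motif GTTAAT on either strand, the core bound by the hepatocyte nuclear factor HNF1, which is known to drive proximal tubule genes, was in 4.72% of all 250-base promoters, in 13 of 85 promoters of genes called lower (15.3%) and in 18 of 390 of genes called higher (4.62%). Among all genes that fell, at any fold, the share was nearer that of all promoters, at 69 of 1060 (6.51%). Among all that rose it was 48 of 1219 (3.94%). The windows below belong to 4 falling genes of this report that hold it, Dnase1 (described with the secreted factors), G6pc, Khk and Haao, and the match is in capitals.
Dnase1 (chr16:4036786-4036865, plus strand): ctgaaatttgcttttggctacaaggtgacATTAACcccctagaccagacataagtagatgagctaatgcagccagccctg
G6pc (chr11:101367466-101367545, plus strand): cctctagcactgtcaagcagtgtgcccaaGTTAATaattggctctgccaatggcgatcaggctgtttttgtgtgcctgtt
Khk (chr5:30921462-30921541, plus strand): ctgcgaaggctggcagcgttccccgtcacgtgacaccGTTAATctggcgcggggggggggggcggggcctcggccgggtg
Haao (chr17:83846791-83846870, minus strand): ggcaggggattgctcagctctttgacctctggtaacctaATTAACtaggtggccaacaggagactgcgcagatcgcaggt
In Dnase1 and Haao the match reads on the other strand, as ATTAAC. The match of Haao lay 41 to 36 bases before the start and that of Dnase1 221 to 216 bases before it. No binding was measured in these kidneys.

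Transporters of the tubule fell in part. Of 22 organic ion and drug transporters 8 fell and 2 rose, with a median of -0.37 (3 fell without untreated replicate 3 or week 9 replicate 4, 4 without week 9 replicate 1, 4 with the beta-actin covariate and 1 with only the 8 arrays). Slc22a18 fell by 1.20 (SE 0.21, adjusted p = 2.19e-04). Slc22a27, of the same family and outside the list, had 7.20, 9.59, 8.93, 6.93 and 7.83 at week 9, against 10.48, 10.42 and 10.51 in untreated kidneys (change -2.37, SE 0.48, adjusted p = 0.00112). Abcb1a, a pump of drugs and peptides, rose by 1.49 (SE 0.20, adjusted p = 8.30e-06). Of 28 proximal tubule transporters and endocytic receptors 5 fell and 2 rose, with a median of -0.30. Slc34a3, a phosphate transporter, fell by 1.34 (SE 0.26, adjusted p = 8.69e-04) and Slc5a2, the glucose transporter SGLT2, by 0.95 (SE 0.19, adjusted p = 8.44e-04). Slc13a1, the sulphate transporter, named after its values were seen, was higher in every week 9 kidney, at 10.89 to 11.64 against 10.72 to 10.77 in untreated kidneys (change 0.62, SE 0.17, adjusted p = 0.0124). The number of proximal tubule genes that fell was 2 when replicate 1 of either group was left out, 3 when untreated replicate 3 was, with the beta-actin covariate or with only the 8 arrays, and 11 and 8 when week 9 replicates 2 and 3 were, each in turn.

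In the distal nephron, 9 of 27 genes of the thick ascending limb and distal tubule fell and 2 rose, with a median of -0.38 (5 fell without untreated replicate 3, 4 with only the 8 arrays and 3 with the beta-actin covariate). Pvalb, the calcium buffer of the early distal convoluted tubule, had 5.65, 8.50, 6.90, 4.14 and 4.85 at week 9, against 8.67, 9.02 and 8.82 in untreated kidneys. Replicate 2 of week 9 was just below the lowest untreated kidney, the other 4 were far below, and the change of -2.83 (SE 0.63, adjusted p = 0.00278) was -3.45 without it. Calb1, another calcium buffer of this segment, fell by 1.35 (SE 0.23, adjusted p = 1.83e-04) and Slc12a3, the thiazide-sensitive sodium chloride cotransporter, by 0.93 (SE 0.19, adjusted p = 0.00159). Trpv6, a calcium channel named after its values were seen, rose by 0.83 (SE 0.18, adjusted p = 0.00243), and Slc12a1, the cotransporter of the thick ascending limb, did not pass (-0.06, adjusted p = 0.821). Of 26 collecting duct and intercalated cell genes 4 fell and none rose (2 without untreated replicate 2 or week 9 replicate 5, with the beta-actin covariate or with only the 8 arrays). Slc5a3, which carries the osmolyte myo-inositol, had 4.59, 4.87, 4.62, 4.61 and 4.23 at week 9, against 6.21, 5.91 and 5.99 in untreated kidneys (change -1.45, SE 0.22, adjusted p = 4.87e-05). Here the 5 week 9 kidneys lay close together. Slc4a1, the anion exchanger of intercalated and red cells, fell by 1.22 (SE 0.30, adjusted p = 0.00578), and Aqp2, the water channel, stood between 4.40 and 4.88 at week 9 and between 4.77 and 5.02 in untreated kidneys and did not pass.

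Among 27 secreted kidney factors and deoxyribonucleases 7 fell and 2 rose, with a median of -0.40 (4 fell with the beta-actin covariate or with only the 8 arrays). Serpina6, the corticosteroid-binding globulin, had 3.07, 4.65, 3.63, 2.69 and 2.52 at week 9, against 7.61, 7.33 and 7.64 in untreated kidneys. All 5 week 9 kidneys lay far below the untreated ones, and the change of -4.21 (SE 0.45, adjusted p = 3.59e-07) was the largest fall of any called gene. Dnase1, a nuclease secreted by the tubule that cuts extracellular DNA, had 8.39, 11.39, 10.29, 7.70 and 7.31 at week 9, against 11.67, 11.90 and 11.49 in untreated kidneys. Replicate 2 again lay just below the lowest untreated kidney, and the change of -2.67 (SE 0.69, adjusted p = 0.00903) was -3.26 without it. With only the 8 arrays the fall of Dnase1 missed the threshold (adjusted p = 0.0619). Other large falls of single genes were Dusp15, a phosphatase (-2.23, SE 0.42, adjusted p = 5.88e-04), Clec2h, a C-type lectin-like protein (-2.12, SE 0.45, adjusted p = 0.00184), Slc16a14, of the monocarboxylate transporter family (-1.98, SE 0.43, adjusted p = 0.00212), and Gpx6, a glutathione peroxidase (-1.97, SE 0.34, adjusted p = 2.38e-04). Each was lower in 5 of 5 week 9 kidneys than in any untreated kidney, which the choice of these genes required. With probe sets averaged both Dusp15 and Clec2h changed by -1.37. Clca3a2, a chloride channel regulator of epithelia, was among the largest rises, at 5.94, 4.75, 5.07, 6.85 and 6.37 at week 9 against 1.33, 2.39 and 3.09 in untreated kidneys (change 3.52, SE 0.37, adjusted p = 2.51e-07). Its size rested on 1 probe set, as the other 2, which were dimmer, changed by 0.39 and 0.004 and the average was 1.3.

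Genes of the filter and of vessels moved little. Of 16 podocyte genes 2 rose and none fell, with a median of 0.07, namely Cd2ap, an adaptor of the slit diaphragm, by 0.78 (adjusted p = 0.00660) and Kirrel, an adhesion protein of the slit diaphragm, by 0.72 (adjusted p = 0.0147). Without untreated replicate 1 neither passed (adjusted p = 0.0515 and 0.0622), nor did Kirrel without week 9 replicate 1 (adjusted p = 0.0515) or with the beta-actin covariate (adjusted p = 0.497). The other probe set of Kirrel went the opposite way (-0.62, adjusted p = 0.0509), and the average was 0.05 (adjusted p = 0.865). Nephrin (Nphs1) stood between 4.24 and 4.96 at week 9 and between 4.39 and 4.98 in untreated kidneys (adjusted p = 0.542). Of 17 genes of endothelium, mesangium and renin cells 3 fell (Flt1, Kdr and Tie1) and Notch3 rose, with a median of -0.08. The VEGF receptors Flt1 and Kdr fell by 0.91 (SE 0.16, adjusted p = 2.19e-04) and 0.57 (adjusted p = 0.0272), but none of the 3 fell with the beta-actin covariate, where the change of Flt1 was -0.60 (adjusted p = 0.105), that of Kdr -0.77 (adjusted p = 0.0677) and that of Tie1 -0.20 (adjusted p = 0.757). Without untreated replicate 3 neither Tie1 (adjusted p = 0.156) nor Notch3 (0.172) passed, and Notch3 did not pass with the covariate (0.251), with only the 8 arrays (0.132) or with its probe sets averaged (0.0701). Kdr missed the threshold on leaving out untreated replicate 1 (adjusted p = 0.105) or 2 (0.0700) or week 9 replicate 1 (0.0736) or 4 (0.0891). Pecam1, which marks endothelium, did not pass (0.11, adjusted p = 0.684).

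**Figure D4:**
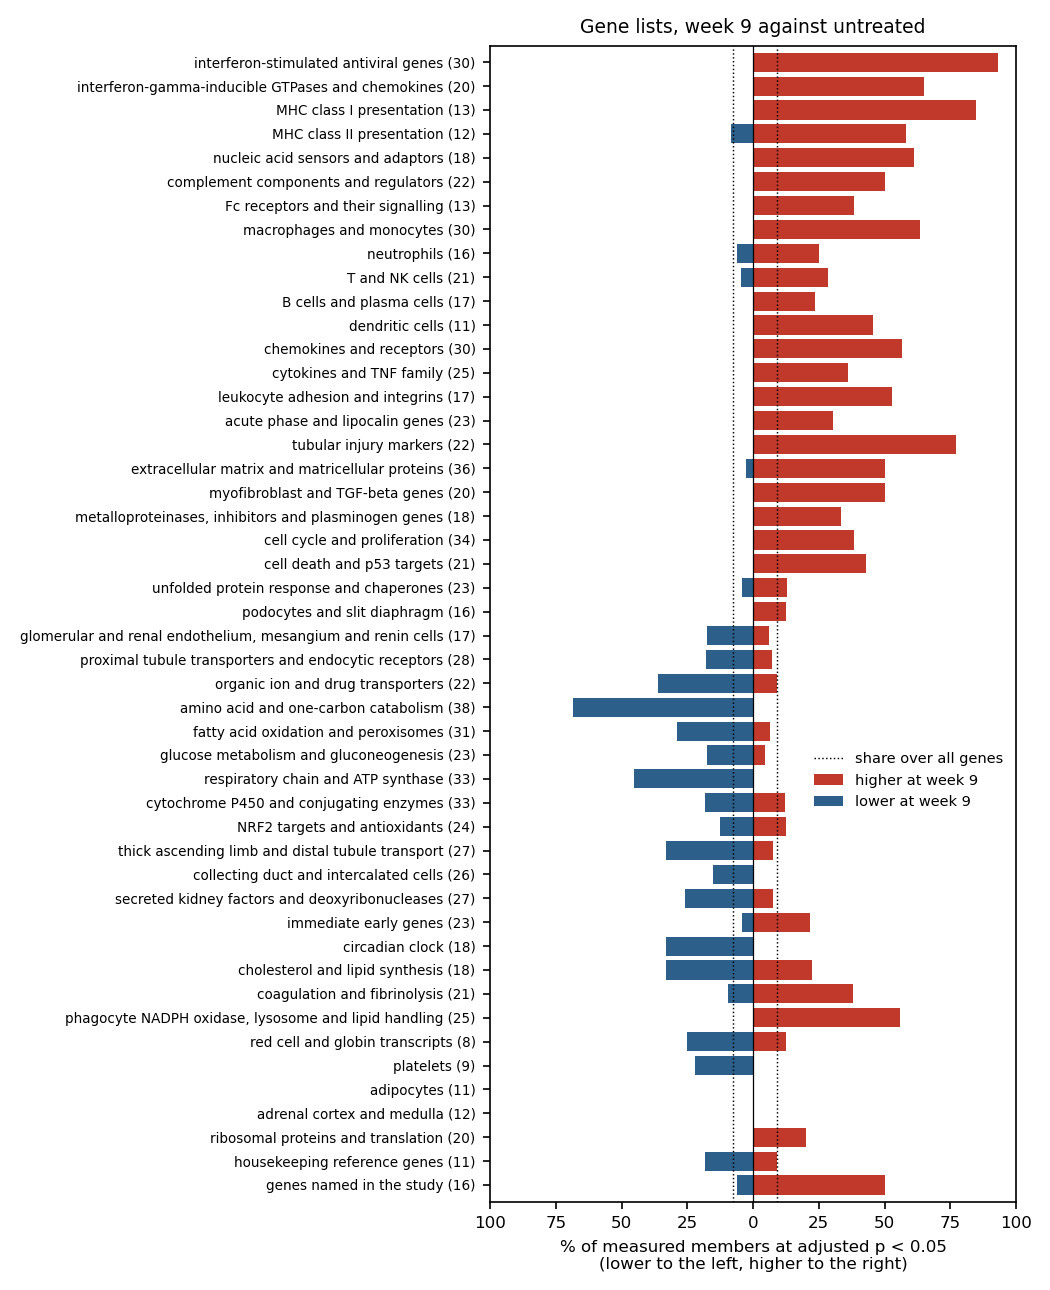
Share of the measured members of each gene list with an adjusted p below 0.05 (horizontal axis, percent), lower at week 9 to the left and higher to the right, with the shares over all 17097 genes, 7.57% and 9.05%, as dotted lines. Interferon-stimulated genes, MHC class I and tubular injury markers reach farthest to the right and amino acid catabolism farthest to the left.

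Genes of tissue around the kidney and of blood were set beside these lists. Adipocyte genes varied widely in both groups. Adipoq, the adipokine, had 6.61, 6.16, 4.58, 2.08 and 2.88 at week 9, against 5.38, 7.37 and 3.41 in untreated kidneys (adjusted p = 0.630), and none of 11 members passed. The summed linear signal of the list ran from 9.73 to 11.41 on the log2 scale at week 9 and from 9.87 to 11.83 in untreated kidneys. None of 12 adrenal genes passed, and Star, which carries cholesterol into mitochondria for steroid synthesis, stood between 4.70 and 5.22 at week 9 and between 4.37 and 5.16 in untreated kidneys. A list of 16 hepatocyte genes, added after the values were seen, had 3 falling members and none rising, with a summed signal from 9.52 to 10.23 at week 9 and from 10.40 to 10.62 in untreated kidneys. Albumin (Alb) had 5.11, 5.58, 5.39, 4.81 and 5.36 at week 9, against 6.97, 7.15 and 7.29 in untreated kidneys. The groups did not overlap, yet the change of -1.89 (SE 0.58, adjusted p = 0.0273) did not pass without week 9 replicate 1 (adjusted p = 0.0533) or 4 (0.0600) or any untreated kidney (0.0604 to 0.0916), and with the beta-actin covariate it was -0.57 (0.77). Cps1, of the urea cycle, was at 1.62 to 1.84 at week 9 and 2.78 to 4.12 in untreated kidneys (change -1.83, adjusted p = 0.0395), and was 0.02 with the beta-actin covariate. It passed on leaving out untreated replicate 2 but no other array (adjusted p = 0.052 to 0.164). The part of liver transcripts in the falls of genes that both organs express was not tested. The alpha-globin Hba-a1, chosen after its values were seen, had 9.77, 10.65, 9.37, 10.17 and 9.82 at week 9, against 8.24, 8.84 and 9.35 in untreated kidneys (change 1.15, SE 0.62, adjusted p = 0.225), and of 8 red cell genes Alas2 rose (adjusted p = 0.0208, but 0.0557 without untreated replicate 1 and 0.0968 without untreated replicate 2) while Slc4a1 and the transferrin receptor Tfrc fell.

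Among the remaining lists, clock genes fell in 6 of 18 members and none rose, with a median of -0.25. Clock, the activator, fell by 0.62 (SE 0.13, adjusted p = 0.00131) on its brightest probe set, but the other 3 changed by 0.05, -0.07 and 0.04 and the average did not pass (-0.15, adjusted p = 0.435), and the repressors Per2 and Per3 fell by 0.88 (adjusted p = 0.0183) and 0.81 (adjusted p = 0.0153). Neither Per gene passed without untreated replicate 1 or 3 or week 9 replicate 1 (adjusted p = 0.0516 to 0.126). The count was 1 when replicate 1 of either group was left out and 2 when untreated replicate 3 was, with the beta-actin covariate or with only the 8 arrays, and the hour at which the kidneys were taken is not given in the labels. Of 23 genes of the unfolded protein response 3 rose and 1 fell with a median of -0.14, led by the asparagine synthetase Asns at 1.54 (SE 0.37, adjusted p = 0.00464, and 0.0549 without untreated replicate 3, where none rose). Without week 9 replicate 4 or 5, or with the beta-actin covariate, the count was 1, and with only the 8 arrays none rose. Of 24 NRF2 targets and antioxidants 3 rose and 3 fell (1 rose without untreated replicate 1 or with only the 8 arrays, 5 fell without week 9 replicate 2 and none with the beta-actin covariate), and the mitochondrial peroxiredoxin Prdx3 fell by 0.70 (SE 0.15, adjusted p = 0.00138). Of 21 coagulation genes 8 rose (5 without untreated replicate 3 and 4 with only the 8 arrays) and 2 fell, with the thrombin receptor F2r at 1.39 (SE 0.32, adjusted p = 0.00373). Ribosomal protein and translation genes rose in 4 of 20 members by small amounts (1 without untreated replicate 3, 2 with the beta-actin covariate and 0 with only the 8 arrays), with Rps4x at 0.42 (SE 0.10, adjusted p = 0.00477), and 2 of 9 platelet genes fell. Of 11 reference genes Gusb rose by 0.69 and Gapdh and Tfrc fell by 0.34 and 1.13. Gusb missed the threshold on leaving out untreated replicate 1 or 2 or week 9 replicate 1, 4 or 5 (adjusted p = 0.0551 to 0.0693), and Gapdh on leaving out untreated replicate 1 (0.0556).

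Of 16 measured genes that the study discusses, 8 rose and 1 fell, with a median of 0.63 (5 rose with only the 8 arrays). The study chose them on these and other samples, so their direction is not independent evidence. Those that rose were Jchain, Havcr1, Timp1, Ifih1, Tnc, Cebpd, Ccn1 and Sting1, with the values above for all but Cebpd, an acute phase transcription factor that rose by 1.42 (SE 0.34, adjusted p = 0.00427). S100a8 fell, as described. Fbn2, a fibrillin, was dim in all kidneys, between 2.58 and 3.18 at week 9 and between 2.50 and 3.07 in untreated kidneys, and did not pass (adjusted p = 0.876). The study reported Cebpd, Ccn1, Ddx60 and Jchain as more specific to the Adv-IFNα model, and of these Ddx60 did not pass here. It reported the other genes, except Ifih1, as more specific to pristane-treated SNF1 mice. That contrast between models cannot be made from these kidneys.

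Week 9 was also set against other weeks of the treated mice, in comparisons that share the week 9 arrays with the one above. Against week 7 only 2 genes were higher (0.0117%) and 10 lower (0.0585%). Atp12a, a proton-potassium pump, and Sft2d3 were higher by 1.41 and 0.93 (adjusted p = 0.0132 and 0.0110), and Dnm3os, a noncoding RNA, and the clock repressor Cry1 were lower, with differences of -1.01 and -0.89 (adjusted p = 0.0482 and 0.0340). These 4 were chosen after their values were seen. A p that misses the threshold does not show that the weeks were alike. Against week 1, 1129 genes were higher (6.6%) and 1044 lower (6.11%), 323 and 119 of them by over 2-fold. Of the 30 antiviral genes 13 were lower than at week 1 and none was higher, with a median difference of -0.64. Irf7 averaged 6.46 ± 1.04 at week 9 and 8.38 ± 0.17 at week 1 (SD, n = 5 each), with untreated kidneys at 4.02 ± 0.10 (SD, n = 3). Not all antiviral genes went this way, as Oas3 averaged 7.08 ± 0.99 at week 9 and 7.11 ± 0.28 at week 1 (SD, n = 5 each). Of the 30 macrophage genes 19 were higher than at week 1, of the 22 tubular injury genes 17, of the 36 matrix genes 20 and of the 12 class II genes 9, while 30 of the 38 genes of amino acid catabolism and 17 of the 33 respiratory chain genes were lower. Jchain averaged 7.80 ± 0.83 at week 9 and 3.31 ± 0.76 at week 1 (SD, n = 5 each), and Serpina6 averaged 3.31 ± 0.86 at week 9 and 7.27 ± 0.24 at week 1 (SD, n = 5 each). The alpha-globin of red cells differed between the groups of this comparison, with Hba-a1 at 9.96 ± 0.48 at week 9 and 6.56 ± 0.50 at week 1 (SD, n = 5 each), and its part in the comparison with week 1 was not tested.

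**Figure D5:**
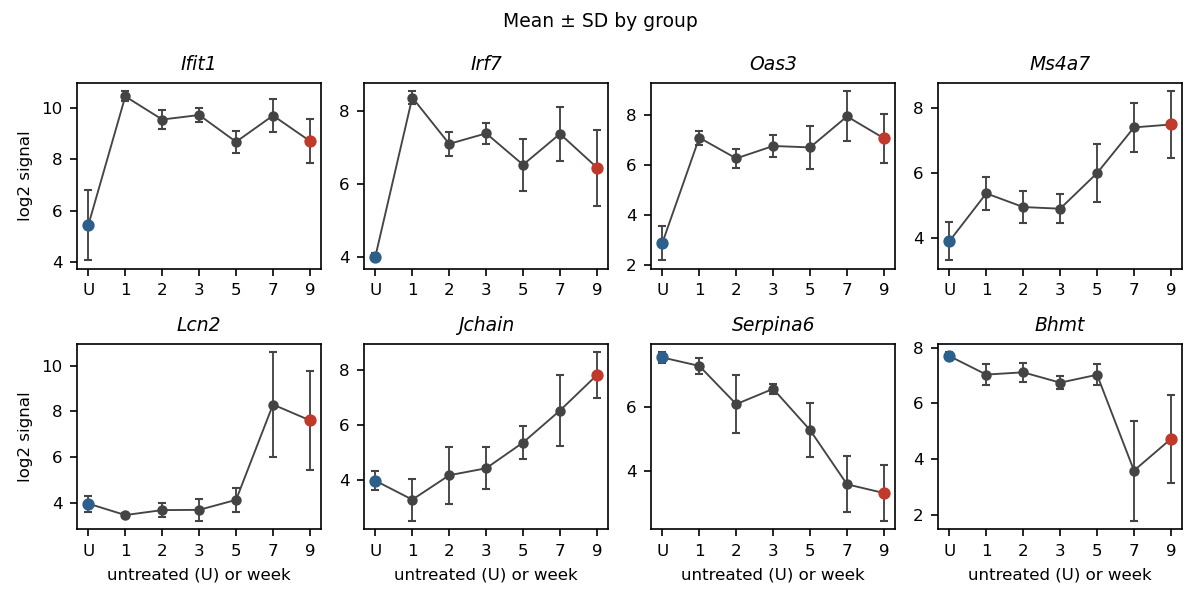
Mean log2 signal and SD (vertical axis) of 8 genes in untreated kidneys (U, n = 3) and at 1, 2, 3, 5, 7 and 9 weeks after Adv-IFNα (horizontal axis, n = 5 each). Irf7 and Ifit1 are highest at week 1, whereas Lcn2, Jchain and Ms4a7 are higher and Serpina6 and Bhmt lower at weeks 7 and 9 than at week 1. Oas3 is highest at week 7 (7.96) and alike at weeks 1 and 9 (7.11 and 7.08).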

How the data were processed

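Kidney RNA was extracted with Trizol and hybridised to Affymetrix HT MG-430 PM arrays, with 1 array per kidney. The deposited table holds log2 signals that the authors normalized by RMA. The submitters' notes name RMA and Partek, with no versions. No log base is stated, and log2 was inferred from the range of values, 0.585 to 13.9. RMA makes the array distributions equal, so a shift of all genes together would not be seen. Signal has no count behind it, and the number of arrays limits the precision.

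No further normalization was applied. A probe annotation paired 28898 of 45037 non-control probe sets with 1 gene symbol, 551 with several and 15588 with none here. Genes were named from the probe sets with 1 symbol only and represented by the brightest of them.

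All 33 arrays entered 1 limma 3.58.1 model (lmFit and eBayes, R 4.3.3) with 7 group means and 26 residual degrees of freedom. P-values of genes were adjusted by the Benjamini-Hochberg method across all 45037 probe sets, and every adjusted p in the text is of this limma test. P-values rest on 1 spread per probe set, shared by the mice of all 7 groups. Where a gene varied more at week 9 than in most groups, its p can be too small. Lcn2, for example, had an SD of 2.15 at week 9 and 2.30 at week 7, but 0.10 at week 1 and 0.35 in untreated kidneys. The model was tested on simulated data with independent probe sets and the same spread in every group. The genes called here differed in spread between the groups, so that test does not cover this. Alternatives were array weights, arrays centred on their median, the beta-actin ratio as a covariate, an intensity trend, averaged probe sets per gene, only the 8 arrays, a replicate block, removal of dim probe sets (median below 4.04) and each array left out.

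Named genes were the 15 largest rises and 15 largest falls among called genes whose groups did not overlap, up to 4 members per list by size of change, genes the study discusses and the 5 with the largest SD at week 9. Cell type markers that were dim or did not pass were also named. The comparison and the gene lists were chosen with earlier results of these data known. Promoters and their coordinates are from RefSeq on GRCm38.p6, the promoter with the lowest coordinate for the 2517 genes with several.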

Additional observations from a re-analysis of the deposited data

Results flagged for a closer look

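Among the named genes, 191 groups of 5 week 9 kidneys were looked at for a kidney that stood apart, by the gap to its nearest neighbour over the whole range, against Dixon's critical value. There were 12 such kidneys. Chance alone marks about 1 group in 20, so 12 of 191 is near what chance would give, and the kidneys below are listed as a description.

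Week 9 replicate 2 was far below the other 4 for Birc5 (5.00), Prc1 (5.10), Cebpd (5.07), Dhx58 (4.73), Oasl2 (5.11), Ms4a6d (4.54) and S100a4 (5.51), and above them for the anion exchanger Slc4a1 (6.98). In each of these 8 genes the value of replicate 2 lay on the side of the untreated kidneys. A low value in a gene that rose, or a high value in one that fell, lies on that side in any case. Replicate 1 was far above the others for Pou2af1 (5.62), the coactivator of antibody genes, and for the integrin Itgax of dendritic cells and macrophages (5.77). Replicate 4 was far below the others for Il1b (5.49), and replicate 3 was far above them for S100a9 (4.35).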

How the results depend on the processing

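Of the 181 named genes past the test, 163 to 181 kept an adjusted p below 0.05 with array weights, centred arrays, an intensity trend or averaged probe sets, and 164 of 164 did without dim probe sets. With only the 8 arrays 128 did, and 119 did once the beta-actin ratio entered as a covariate. Under every single array left out 129 kept it, and under every alternative 96. Rises described above that missed the threshold with only the 8 arrays were Acadl, Adamts1, Apoe, Asns, Cd2, Cd3d, Cd74, Cdkn1a, F2r, Fn1 and Gusb. So did Klrd1, Lgals3, Lox, Mmp12, Notch3, Rps4x, Slc13a1, Sting1, Timp1, Tnc, Tnfrsf13b and Ugt2b37. Falls that missed it in that fit were Acox2, Col4a3, Dnase1, Gapdh, Gsta2, H2-Oa, Haao, Kdr, Ndufb5, Per3, S100a8 and Zap70. With the covariate Cps1 changed sign, at 0.016 (main value -1.83). The numbers that rose and fell were 833 and 283 with the covariate and 653 and 328 with only the 8 arrays, and 774 fell with array weights (main values 1547 and 1294). The fit to 8 arrays has fewer samples for the spread. It also leaves out the other weeks, in some of which genes such as Lcn2 varied less than at week 9. These 2 parts were not separated, and the cause of the other differences was not tested. Leaving out 1 array gave 442 to 620 genes called higher, 69 to 159 called lower, 1016 to 1769 that rose and 757 to 1416 that fell. The other counts of genes stayed within 1.5 times. Centring the arrays raised every change by 0.04 and gave 554 called higher and 94 lower, with 1840 that rose and 1016 that fell. Same-numbered week 9 and untreated kidneys deviated together only weakly (r = 0.02, 0.03 and 0.06), and differently numbered ones ranged from -0.13 to 0.097. So few pairs cannot show whether same-numbered kidneys share anything beyond the number. With the replicate block 503 genes were called higher and 113 lower, and 1383 rose and 1263 fell. Dim probe sets compress changes, and 5 against 3 kidneys limit what small changes could be seen.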

Other observations

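The genes with the largest spread among the week 9 kidneys were not all past the test. Adipoq is given above. Car3, an abundant carbonic anhydrase of fat, had 9.68, 9.72, 7.57, 5.01 and 6.37 at week 9, against 8.83, 10.16 and 7.58 in untreated kidneys (adjusted p = 0.484). Ucp1, the uncoupling protein of brown fat, chosen after its values were seen, had 6.98, 6.33, 4.86, 3.27 and 3.84 at week 9, against 7.89, 8.03 and 4.21 in untreated kidneys (adjusted p = 0.201). Both genes were low in week 9 replicates 4 and 5 and in untreated replicate 3. Cyp27b1, which makes the active form of vitamin D in the proximal tubule, had 5.45, 4.20, 4.87, 8.58 and 7.22 at week 9, against 4.97, 4.13 and 4.64 in untreated kidneys. Replicates 1, 4 and 5 stood above all untreated kidneys while replicates 2 and 3 lay within their range, and the difference of 1.48 did not pass (adjusted p = 0.0994).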
